A study of Mus musculus with 6 samples.

Results

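The acute phase protein genes described here are the 4 serum amyloid A genes (Saa1, Saa2, Saa3 and Saa4), the orosomucoid genes Orm1 and Orm2, and the genes of lipocalin 2 (Lcn2), haptoglobin (Hp), hemopexin (Hpx) and serum amyloid P component (Apcs). They were picked out of the count table by gene symbol and are 10 of the 41388 genes counted. All 10 passed the filter on low counts that left 17287 genes for testing. Liver RNA was compared between 3 control pools and 3 *Mttp-IKO* pools, each pool combining RNA of 3 to 4 male mice on a C57BL/6 background that were 12 to 16 weeks old. *Mttp-IKO* mice carried floxed alleles of Mttp, which encodes the protein that loads lipid onto chylomicrons, and the Villin Cre ERT2 transgene, whose promoter is active in intestinal epithelium. They received tamoxifen for 5 days. The sample labels call the control littermates wild type, while the design description and the methods give vehicle-injected mice of the same floxed Cre line, so which alleles the controls carried is not settled by these sources. Tamoxifen exposure and Mttp deletion cannot be told apart. Both groups then ate a methionine- and choline-deficient (MCD) diet for 3 weeks, starting 3 weeks after the injections, and livers were taken after a fast of 4 h by the labels. The question for these genes was whether their mRNAs differed between the genotypes after a diet that injures the liver. A pool of several mice hides the spread between mice, and p-values here measure only the spread between pools.

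Acute phase proteins are plasma proteins that hepatocytes make in altered amounts after infection or tissue injury. Interleukin-1 and tumor necrosis factor act through NF-kB, and interleukin-6 acts through the receptor subunit gp130 and STAT3, with C/EBP factors joining both arms at target promoters. Saa1 and Saa2 encode inducible apolipoproteins of high-density lipoprotein, Saa3 is made by macrophages and other cells as well as hepatocytes, and Saa4 is the constitutive member of the family. Orosomucoids are lipocalins that bind drugs and lipids, lipocalin 2 binds bacterial siderophores, haptoglobin binds free hemoglobin, hemopexin binds free heme, and serum amyloid P component is a pentraxin that is a main acute phase protein in mice.

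None of the 10 mRNAs passed an adjusted p of 0.05 between the genotypes. Apcs was higher in *Mttp-IKO* pools (2.30-fold), and Orm2 (0.372-fold), Saa2 (0.444-fold) and Saa1 (0.467-fold) were lower, by edgeR's quasi-likelihood test on counts scaled by the trimmed mean of M values (TMM), with Benjamini-Hochberg adjustment over the 17287 genes. These 4 had an unadjusted p under 0.05, a share to be read against 23.0% of all genes tested. The count past the adjusted threshold was 0 of 10 beside 4.01% of all genes. With limma-voom it was also 0, and with DESeq2 it was 3 (Saa1, adjusted p = 0.0253, Orm2, 0.00847, and Apcs, 0.00646) beside 11.5% of all genes. For 2 of the 10, Apcs and Orm2, no control pool fell within the range of the *Mttp-IKO* pools or the reverse, against 31.0% of all genes.

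In the Saa family only Saa4 had a positive log2 fold change, which turned negative without *Mttp-IKO* pool 3. The sequences before the transcription start are shown for this family, and for Orm2 and Apcs, the members without overlap between genotypes. Each is the 250 bases upstream of the start in the RefSeq annotation of GRCm38.p6, on the gene's own strand, and 8 of the 10 members were in that table. Both strands were searched for C/EBP (TTNNGNAA), STAT (TTCNNNGAA), NF-kB (GGG and TTTCC with 2 free bases between them) and HNF1 (GTTAAT) letters, and capitals mark the matches, which did not overlap one another. The Saa1 window lies at chr7:46742981-46743230, that of Saa2 at chr7:46751583-46751832, that of Saa3 at chr7:46715677-46715926, that of Saa4 at chr7:46732604-46732853, that of Orm2 at chr4:63362199-63362448 and that of Apcs at chr1:172895055-172895304. Those of Saa2 and Orm2 are on the plus strand and the others on the minus strand.
Saa1: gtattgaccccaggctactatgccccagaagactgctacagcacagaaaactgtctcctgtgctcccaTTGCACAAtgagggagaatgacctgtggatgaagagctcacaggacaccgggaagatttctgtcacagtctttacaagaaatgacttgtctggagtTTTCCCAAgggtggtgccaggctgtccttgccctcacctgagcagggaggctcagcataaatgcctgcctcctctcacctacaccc
Saa2: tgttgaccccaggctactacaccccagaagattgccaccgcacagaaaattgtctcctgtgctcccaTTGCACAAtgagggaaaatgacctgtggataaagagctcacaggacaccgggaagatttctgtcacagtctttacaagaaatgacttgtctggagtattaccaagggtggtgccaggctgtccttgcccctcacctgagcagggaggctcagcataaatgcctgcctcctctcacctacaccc
Saa3: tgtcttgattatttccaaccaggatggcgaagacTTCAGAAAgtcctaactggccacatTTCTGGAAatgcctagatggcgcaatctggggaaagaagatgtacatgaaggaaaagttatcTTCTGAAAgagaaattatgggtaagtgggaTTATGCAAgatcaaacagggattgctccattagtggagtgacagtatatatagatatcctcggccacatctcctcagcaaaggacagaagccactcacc
Saa4: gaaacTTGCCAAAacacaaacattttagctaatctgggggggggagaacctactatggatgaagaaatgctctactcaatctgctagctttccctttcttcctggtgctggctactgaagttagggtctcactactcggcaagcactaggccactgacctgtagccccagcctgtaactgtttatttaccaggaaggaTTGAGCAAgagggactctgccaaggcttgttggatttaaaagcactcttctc
Orm2: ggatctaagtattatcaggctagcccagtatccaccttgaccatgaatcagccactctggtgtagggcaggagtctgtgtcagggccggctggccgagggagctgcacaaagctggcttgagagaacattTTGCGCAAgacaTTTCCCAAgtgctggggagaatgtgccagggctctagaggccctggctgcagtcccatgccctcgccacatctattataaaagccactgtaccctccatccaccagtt
Apcs: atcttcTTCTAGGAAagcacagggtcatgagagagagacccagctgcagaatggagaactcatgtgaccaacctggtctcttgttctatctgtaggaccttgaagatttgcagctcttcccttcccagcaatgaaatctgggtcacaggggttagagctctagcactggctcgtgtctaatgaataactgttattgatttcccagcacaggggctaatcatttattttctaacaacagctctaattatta

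C/EBP letters were in 7 of the 8 promoters searched, the exception being Apcs, and in 36.8% of the 32851 promoter windows of the table. Saa1, Saa4, Orm2 and Hpx held 2 matches each, Saa2 and Lcn2 held 1, and Saa3 held 4. STAT letters were in the Apcs window only, 244 to 236 bases before the start, and in 7.02% of all windows. NF-kB letters (1.41% of all windows) and HNF1 letters (6.43%) were in none of the 8, which says only that these letters are not in these windows. The Saa1 and Saa2 windows were 95.6% identical over 249 aligned bases, and the second C/EBP match of Saa1, 86 to 79 bases before the start, fell where Saa2 held no match.

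The Saa genes form a cluster within 42317 bases of chromosome 7 (GRCm38), in which Saa1 (chr7:46740501-46742980) and Saa2 (chr7:46751833-46754314) lie 8852 bases apart on opposite strands. Levels are given as TMM-scaled CPM, the counts set relative to the scaled size of the library. Saa1 stood at 40.8, 20.4 and 43.6 CPM in control pools 1 to 3, against 12.3, 23.0 and 13.6 in *Mttp-IKO* pools 1 to 3. *Mttp-IKO* pool 2 lay just above control pool 2, and the other 2 *Mttp-IKO* pools lay below every control pool. The log2 fold change was -1.10 (standard error 0.340, adjusted p = 0.110, edgeR), with a 95% interval from -1.88 to -0.32. For Saa2 the controls held 19.3, 12.6 and 22.6 CPM and the *Mttp-IKO* pools 6.51, 14.03 and 3.61 CPM (log2 fold change -1.17 ± 0.456 SE, adjusted p = 0.178 by edgeR). In both genes control pool 2 was the lowest control and *Mttp-IKO* pool 2 the highest *Mttp-IKO* value. Without control pool 2, Saa1 passed the threshold (log2 fold change -1.39, adjusted p = 0.0408, edgeR), where 892 of 17784 genes passed. It did not pass without control pool 1 (-0.99, adjusted p = 0.315) or control pool 3 (-0.93, adjusted p = 0.326), where 24 and 21 genes passed.

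Saa3 (chr7:46711998-46715676), which macrophages also make, measured 7.19, 6.35 and 9.09 CPM in the controls, against 9.80, 4.87 and 1.85 in the *Mttp-IKO* pools. The *Mttp-IKO* pools surrounded the controls, and the log2 fold change was -0.45 (standard error 0.498, adjusted p = 0.630, edgeR). Saa4 (chr7:46728017-46732543) was at 102, 106 and 89.4 CPM in the controls, and its *Mttp-IKO* values were 79.9, 61.9 and 284 CPM. *Mttp-IKO* pools 1 and 2 were below every control and pool 3 was above all of them. The log2 fold change of Saa4 was 0.52 with all pools (standard error 0.517, adjusted p = 0.583, edgeR) and -0.48 without *Mttp-IKO* pool 3 (adjusted p = 0.108), so 1 pool set its direction.

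The orosomucoid genes Orm1 (chr4:63344560-63348163) and Orm2 (chr4:63362449-63365878) lie 14285 bases apart on the plus strand of chromosome 4. Orm1, the more abundant, measured 342, 256 and 359.7 CPM in the controls, against 469.9, 474 and 217 in the *Mttp-IKO* pools. Pools 1 and 2 of *Mttp-IKO* were above every control and pool 3 below. Its log2 fold change was 0.28 (standard error 0.310, adjusted p = 0.630, edgeR). For Orm2 the controls held 82.4, 35.3 and 88.6 CPM and the *Mttp-IKO* pools 30.0, 32.8 and 13.9 CPM. Every *Mttp-IKO* pool was below every control, although the nearest pools, at 32.8 and 35.3 CPM, almost met. The log2 fold change of Orm2 was -1.43 (standard error 0.412, adjusted p = 0.0945, edgeR), with a 95% interval from -2.38 to -0.48. Without control pool 2 it was -1.76 (adjusted p = 0.0391, edgeR), where 892 of 17784 genes passed, and without *Mttp-IKO* pool 3 it was -1.13 (adjusted p = 0.119). Without control pool 1 it was -1.29 (adjusted p = 0.285) and without control pool 3 it was -1.22 (adjusted p = 0.297). Orm3, the third gene of the cluster, was low, with 4.18 ± 1.18 CPM in the controls against 2.90 ± 1.59 CPM (SD, n = 3 pools each; log2 fold change -0.53, adjusted p = 0.479, edgeR).

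**Figure D1:**
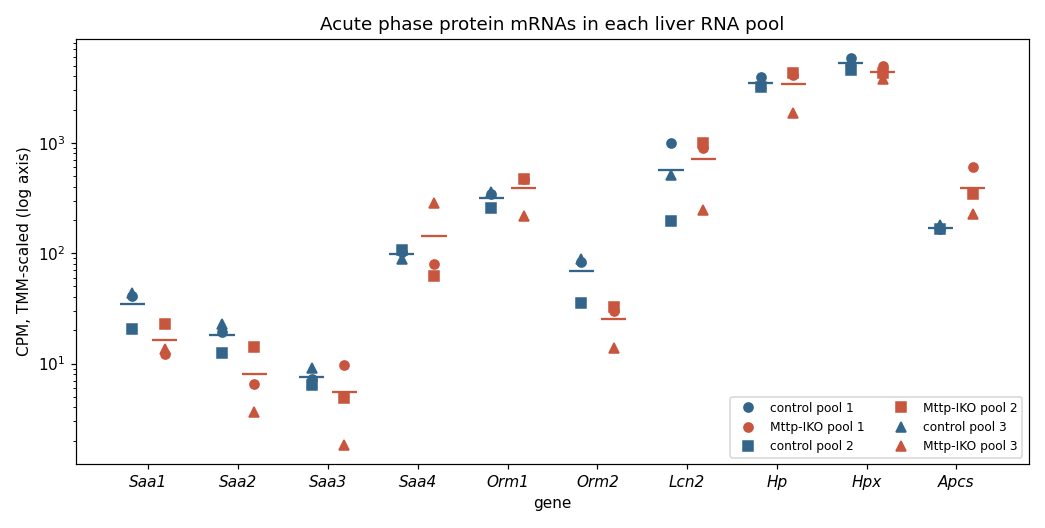
Level of each acute phase mRNA in CPM (TMM-scaled, log axis) in the 3 control pools (blue) and 3 *Mttp-IKO* pools (red), with horizontal bars at the group means. Only Apcs, from 225 CPM upward in *Mttp-IKO* pools and up to 179 CPM in controls, and Orm2, up to 32.8 CPM in *Mttp-IKO* pools and from 35.3 CPM upward in controls, had pools that did not overlap.

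Lcn2 (chr2:32384633-32387797) varied most of the members among the controls relative to its mean, at 986, 195 and 512 CPM, and measured 892, 1001 and 244 CPM in the *Mttp-IKO* pools. The ranges of the genotypes nearly coincided, and the log2 fold change was 0.34 (standard error 0.638, adjusted p = 0.791, edgeR). Its 95% interval, from -1.13 to 1.81, spans more than a doubling in either direction, so these pools do not exclude a difference of that size.

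The hemoglobin and heme binders were the most abundant members. Hp (chr8:109575130-109579172) stood at 3915, 3211 and 3419 CPM in the controls, against 4108, 4263 and 1873 in the *Mttp-IKO* pools. Pools 1 and 2 of *Mttp-IKO* were above every control and pool 3 was below, and the log2 fold change was -0.042 (standard error 0.326, 95% interval -0.79 to 0.71, adjusted p = 0.955, edgeR). Its direction changed with the length correction and with the pool left out. Hpx (chr7:105591613-105600116) measured 5839, 4525 and 5538 CPM in the controls, and its *Mttp-IKO* values were 4982, 4286 and 3758 CPM. The genotypes overlapped in 1 pool of each, control pool 2 and *Mttp-IKO* pool 1, and the log2 fold change was -0.29 (standard error 0.228, 95% interval -0.81 to 0.24, adjusted p = 0.486, edgeR).

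Apcs (chr1:172893962-172895054) was steady in control pools, at 164, 167 and 179 CPM, against 607, 343 and 225 CPM in *Mttp-IKO* pools. Every *Mttp-IKO* pool was above every control, and the *Mttp-IKO* pools differed among themselves far more than the controls (SD 196 against 7.56 CPM). The log2 fold change was 1.204 (standard error 0.333, 95% interval 0.44 to 1.97, adjusted p = 0.0862, edgeR). Without *Mttp-IKO* pool 3, the lowest of the 3, it was 1.48 and passed the threshold (adjusted p = 0.0246, edgeR), where 4.84% of all genes passed. Without *Mttp-IKO* pool 1, the highest, it was 0.74 (adjusted p = 0.116, edgeR).

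**Figure D2:**
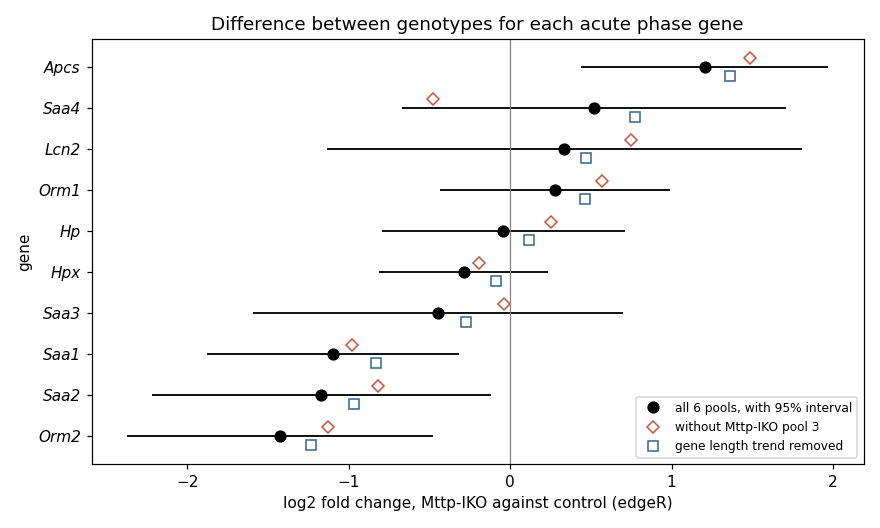
Log2 fold change of *Mttp-IKO* against control for each acute phase gene, with its 95% interval (black, all 6 pools), without *Mttp-IKO* pool 3 (open red diamonds) and with the trend of each library with gene length removed (open blue squares). The intervals of Apcs, Saa1, Saa2 and Orm2 leave out 0 before adjustment, and Saa4 moves from 0.52 to -0.48 without *Mttp-IKO* pool 3.

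Pool 3 of *Mttp-IKO* stood apart from the other pools in its share of short mRNAs. Protein-coding genes of 300 to 1000 nt took 1.84% of its mRNA reads, against 3.98% to 4.28% in the other 5 pools, and small RNA genes took 0.290% of its reads, against 1.92% to 3.51%. Of the 6 members with exon lengths under 1000 nt (Saa1, Saa2, Saa3, Orm1, Orm2 and Apcs), 4 had their lowest value in this pool. So did the longer Hp and Hpx, and the share over all short genes was not computed. Lcn2 counts as long here and in the length correction by its exon length of 2302 nt, although its first annotated protein-coding transcript has 915 nt. Once each library's trend with gene length was removed, Apcs passed the threshold (log2 fold change 1.36, adjusted p = 0.0326, edgeR), where 874 of 17287 genes passed. In that fit Saa1 (-0.83, adjusted p = 0.142), Saa2 (-0.96, adjusted p = 0.157) and Orm2 (-1.23, adjusted p = 0.0742) remained short of it. The log2 fold changes of Saa1 and Saa2 without this pool were -0.98 (adjusted p = 0.168, edgeR) and -0.82 (adjusted p = 0.216), and that of Saa3 was -0.036 (adjusted p = 0.954).

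Libraries held 25271585 to 36238734 reads on genes and the lowest count of any member was 44 reads, for Saa3 in *Mttp-IKO* pool 3. The limit that a count of 0 sets, 3 reads in a library, was 0.0828 to 0.119 CPM (counting error only). The 10 members together took 0.626% to 1.28% of the reads of a pool. Over all genes 159 were called higher and 535 lower in *Mttp-IKO* pools. This split was 112 and 907 with total counts as the scaling, which moved the median log2 fold change of all genes to -0.17, and 374 and 500 with the length trend removed, which moved it to 0.14. Relative to the other genes, the directions of Apcs, Saa1, Saa2 and Orm2 were the same under each of these scalings. Liver Mttp, which the Villin promoter does not target, ranged over 90.4 to 186 CPM in the controls and 129 to 161 CPM in the other group, and so does not check the genotype.

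Per kilobase of exon, on the RPKM scale (CPM from TMM-scaled counts, divided by exon length in kilobases), Hpx was the most abundant member in control pools at 3586 ± 466, followed by Hp (2617 ± 269), Orm1 (412 ± 71.3), Lcn2 (245 ± 173) and Apcs (173 ± 7.69). Orm2 (88.8 ± 37.6), Saa1 (57.8 ± 20.97), Saa4 (49.1 ± 4.23), Saa2 (29.8 ± 8.42) and Saa3 (14.2 ± 2.64) were lower (SD, n = 3 pools). Of neighbors in this order, Orm1 and Lcn2, Lcn2 and Apcs, Orm2 and Saa1, and Saa1 and Saa4 overlapped between pools. In *Mttp-IKO* pools Apcs was at 398 ± 199 and Lcn2 at 309 ± 178, and Saa4 (70.5 ± 61.3) stood above Orm2 (33.0 ± 13.1) and Saa1 (27.0 ± 9.66), but all of these neighbors overlapped. The only neighbors that did not overlap there were Hp (2543 ± 996) and Orm1 (499 ± 189.8). The exon length of Lcn2 in the files, 2302 nt, exceeds its first annotated protein-coding transcript (915 nt), so its RPKM is a low estimate and its place in either order relative to Apcs and Orm1 rests on that length.

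Ratios between members within a pool do not depend on the scaling of the libraries, and 7 were computed after the counts had been seen. Reads per kilobase of Orm1 were, relative to those of Orm2, 4.14, 7.26 and 4.06 times as many in control pools and 15.7, 14.5 and 15.6 times in *Mttp-IKO* pools. The genotypes were far apart in this ratio and the *Mttp-IKO* pools were nearly alike (5.15 ± 1.82 against 15.2 ± 0.674, SD, n = 3 pools each), pool 3 included. The difference was 1.62 on the log2 scale (p = 0.1 in a two-sided exact permutation test, which can go no lower with 3 pools against 3, and 0.233 adjusted over the 7 ratios). Apcs relative to Hpx was 0.0423, 0.0555 and 0.0485 in control pools and 0.183, 0.1203 and 0.0901 in *Mttp-IKO* pools, also without overlap (exact permutation test, p = 0.1). Orm2 relative to Hpx was lower in every *Mttp-IKO* pool, at 0.00707 to 0.0146, than in controls, at 0.0149 to 0.0305 (exact permutation test, p = 0.1). Orm1 and Orm2 have equal exon lengths (775 nt), but Orm2 and Apcs (983 nt) are shorter than Hpx (1478 nt). The ratios were not corrected for a library's trend with gene length, and among *Mttp-IKO* pools both ratios to Hpx were lowest in pool 3. The ratios of Saa1 to Hpx, Saa4 to Saa1, Saa1 to Saa2 and Hp to Hpx overlapped between the genotypes (exact permutation tests, p = 0.2 to 0.8).

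**Figure D3:**
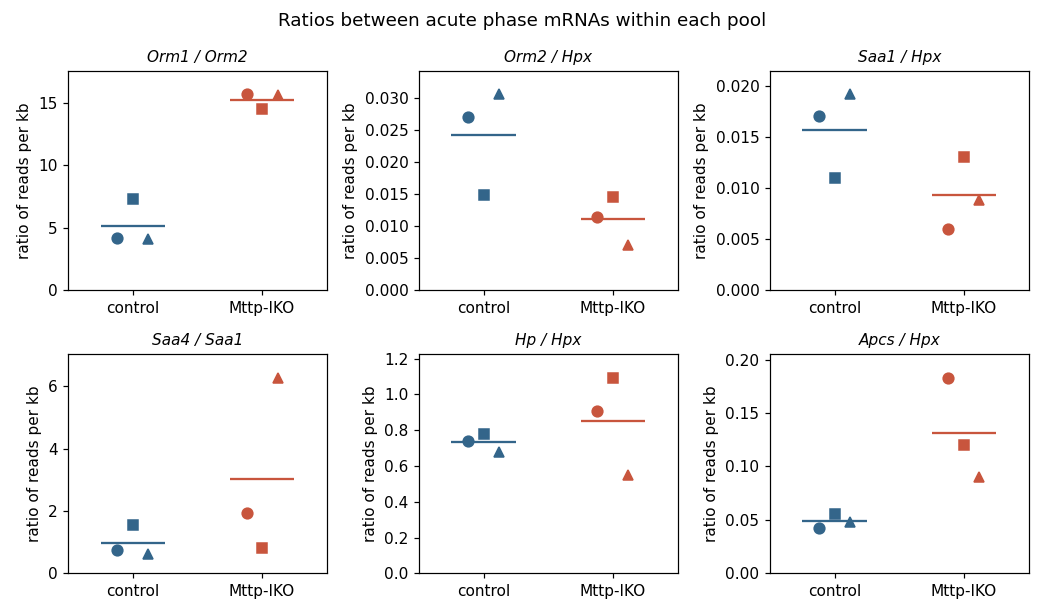
Ratios of reads per kilobase between pairs of acute phase mRNAs within each pool, for control (blue) and *Mttp-IKO* (red) pools 1 (circle), 2 (square) and 3 (triangle), with bars at the means. Orm1 over Orm2 was 4.06 to 7.26 in control pools and 14.5 to 15.7 in *Mttp-IKO* pools, and Orm2 over Hpx and Apcs over Hpx also did not overlap.

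Close copies could split the reads of the Saa and Orm genes, because only reads with a unique place in the genome were counted. Among the 50-base stretches of the first annotated protein-coding transcript (GENCODE M21), 14.8% of those of Saa1 and 13.3% of those of Saa2 also occurred in transcripts of another gene, as did 20.4% of those of Orm1 and 22.7% of those of Orm2. The transcripts of Orm1 and Orm2 were 91.0% identical and those of Saa1 and Saa2 94.4%. For Saa3 the shared part was 1.78% and for Saa4 1.37%, and for Lcn2, Hp, Hpx and Apcs it was 0%. The shared stretches of Saa4 occurred in transcripts of 520 other genes, with no Saa gene among them. No other counted gene overlapped any member, so counting without strand could not add reads of a partner to them.

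Other positive acute phase genes that passed the test were all higher. Of 18 tested, 5 rose in *Mttp-IKO* pools and 0 fell (edgeR), beside 0.920% and 3.09% of all genes, 17 had a positive log2 fold change, and the median was 0.66 against 0.0057 over all genes. Hepatocyte markers had a like shift, with a median of 0.71, 9 of 10 positive and 0 called. Whether the acute phase genes rose apart from other hepatocyte mRNAs was not tested. Serpina3n, the gene of a serine protease inhibitor, rose from 404 ± 26.3 to 1138 ± 176 CPM (log2 fold change 1.49, adjusted p = 0.0175, edgeR). Lbp, whose product delivers lipopolysaccharide to its receptors, rose from 89.4 ± 5.99 to 215 ± 26.2 CPM (1.27, adjusted p = 0.0175), and Serpina3m rose from 256 ± 66.2 to 549 ± 60.8 CPM (1.10, adjusted p = 0.0440). The fibrinogen chain genes Fgg (0.91, adjusted p = 0.0423) and Fga (0.91, adjusted p = 0.0463, named after its value was seen) rose as well. C3, the most abundant of the list, was at 10889 ± 849 CPM in control and 11554 ± 1029 CPM in *Mttp-IKO* pools (0.086, adjusted p = 0.855). The count of 5 was 0 without control pool 1, control pool 3 or *Mttp-IKO* pool 2, where 24, 21 and 0 of all genes passed edgeR's threshold (2476, 2539 and 3221 at an unadjusted p under 0.05). It was 1 without *Mttp-IKO* pool 1, 3 without control pool 2 and 7 without *Mttp-IKO* pool 3. Over all genes 55 of 17943, 892 of 17784 and 864 of 17854 passed in these 3 fits.

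Among inducers and signal transducers, 2 genes passed the test and rose, a receptor and a transcription factor, and cytokine reads were few. Il6 gave 0 to 2 reads in a pool and Il22 none, and neither was tested. Of 24 inducers and signal transducers tested, these 2 rose and 0 fell, beside 0.920% and 3.09% of all genes, with a median log2 fold change of 0.43 against 0.0057 over all genes. Il1r1, the receptor for interleukin-1, rose from 58.6 ± 8.70 to 166 ± 31.0 CPM (log2 fold change 1.5001, adjusted p = 0.0178, edgeR), and Cebpd, a C/EBP factor that acute phase signals induce, rose from 30.8 ± 2.58 to 48.6 ± 1.36 CPM (0.66, adjusted p = 0.0425). Il6ra, the interleukin-6 receptor, was at 89.4 ± 20.5 and 174 ± 36.3 CPM (0.96, adjusted p = 0.0609), and the hepatocyte transcription factor gene Hnf4a was at 617 ± 62.5 and 1130 ± 234 CPM (0.87, adjusted p = 0.0664). Osm, the gp130 cytokine oncostatin M, gave 12 to 14 reads in control pools and 0 to 2 in *Mttp-IKO* pools (log2 fold change -3.73, adjusted p = 0.0539, edgeR). Tnf gave 62 to 85 reads in control pools and 6 to 29 in *Mttp-IKO* pools (-1.68, adjusted p = 0.0760). Lif (-1.003, adjusted p = 0.318) and Il1b (-0.36, adjusted p = 0.615) had negative log2 fold changes too. Over the 24 genes, 19 log2 fold changes were positive and 5 negative. The count of 2 was 0 without control pool 1, control pool 3 or *Mttp-IKO* pool 2, where 24, 21 and 0 of all genes passed. It was 1 without *Mttp-IKO* pool 1 and 3 without *Mttp-IKO* pool 3, where 55 and 864 of all genes passed.

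Of 10 genes known to fall in an acute phase response, 0 passed edgeR's threshold in either direction, with 3 at an unadjusted p under 0.05 (23.0% of all genes), 2 with DESeq2 (11.5%) and 2 without *Mttp-IKO* pool 3 (4.84%), and the median log2 fold change was 0.12, against 0.0057 over all genes. Alb, the gene of albumin, was at 54150.1 ± 14455 and 104754 ± 24602 CPM (0.95, adjusted p = 0.157, edgeR), and Apoa1 at 5595 ± 1131 and 11051 ± 4326 CPM (0.98, adjusted p = 0.153). Ttr, the gene of transthyretin, was at 3296 ± 511 and 2252 ± 687 CPM (-0.55, adjusted p = 0.290), and Serpina6, the gene of corticosteroid-binding globulin, at 214 ± 72.7 and 40.3 ± 44.6 CPM (-2.41, adjusted p = 0.113).

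Among 11 genes that bind or clear the members' products, 0 rose and 1 fell, beside 0.920% and 3.09% of all genes, with a median log2 fold change of -0.56 against 0.0057 over all genes. Cd36, a scavenger receptor that takes up fatty acids and binds serum amyloid A, fell from 255 ± 74.98 to 103 ± 15.6 CPM (-1.31, adjusted p = 0.0358, edgeR). Cd163, the haptoglobin-hemoglobin receptor of macrophages, was at 27.4 ± 10.6 and 69.5 ± 19.4 CPM (1.34, adjusted p = 0.0560), and Tlr2 at 7.83 ± 1.29 and 3.53 ± 1.24 CPM (-1.14, adjusted p = 0.0658). Scarb1, the high-density lipoprotein receptor, was at 225 ± 18.0 and 346 ± 48.1 CPM (0.62, adjusted p = 0.0912). Lrp1, the hemopexin receptor, was at 2372 ± 246 and 2133 ± 129 CPM (-0.15, adjusted p = 0.675). The single call was lost without control pool 1, control pool 3, *Mttp-IKO* pool 1 or *Mttp-IKO* pool 2, where 24, 21, 55 and 0 of all genes passed. It became 2 without control pool 2 or *Mttp-IKO* pool 3, where 892 and 864 of all genes passed.

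**Figure D4:**
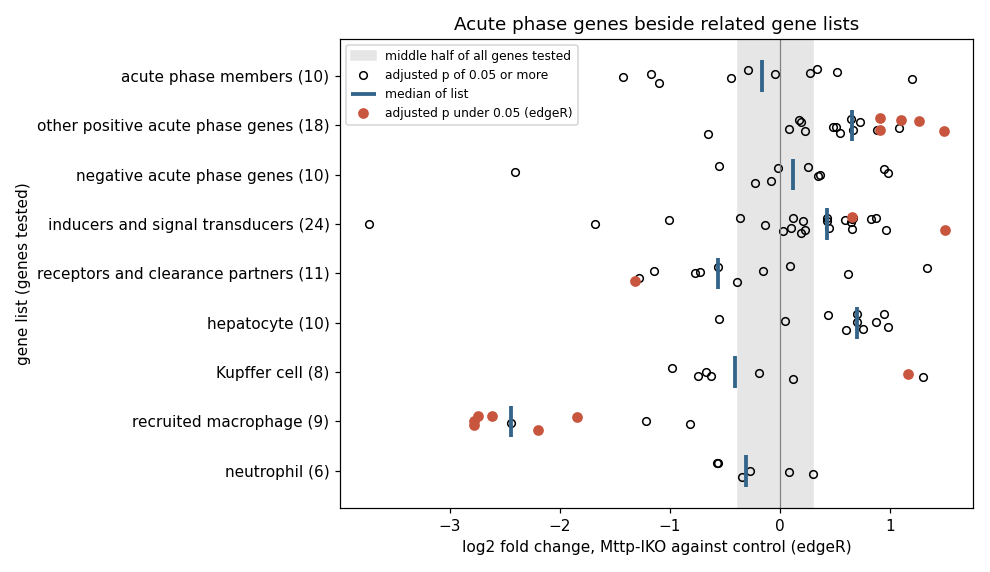
Log2 fold changes of the acute phase members beside related gene lists and cell type markers, with 1 point per gene tested, filled where the adjusted p was under 0.05, list medians as blue bars and the middle of all genes tested (lower to upper quartile, -0.38 to 0.30) shaded. The members spread around 0 with none filled, other positive acute phase genes and hepatocyte markers lie mostly to the right, and recruited macrophage markers lie to the left, with a median of -2.45.

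Cell type markers differed between the genotypes too, and in bulk RNA fewer cells of a type and less RNA per cell cannot be told apart. The summed hepatocyte markers (10 of 10 tested, Alb the largest) were at 67229 to 102086 CPM in control pools and 129735 to 178254 CPM in *Mttp-IKO* pools, with 0 genes called and a median log2 fold change of 0.71. All 9 recruited macrophage markers had negative log2 fold changes and 6 fell, where 3.09% of all genes fell and 0.920% rose, with summed levels of 351 to 1080 CPM in controls and 127 to 210.1 CPM in *Mttp-IKO* pools. Kupffer cell markers summed to 524 to 831 CPM in controls and 382 to 789.6 CPM in *Mttp-IKO* pools, with 1 of 8 genes called higher and 0 lower. Their median log2 fold change was -0.41, with 5 negative and 3 positive. At an unadjusted p under 0.05 (edgeR), 4 of them were lower and 2 higher, beside 23.0% of all genes in either direction. Stellate cell markers summed to 851 to 1516 CPM in controls and 457 to 509.6 CPM in *Mttp-IKO* pools, with 5 of 8 called lower, beside 3.09% of all genes. Neutrophils also make Lcn2, and their 12 markers summed to 15.1 to 31.0 CPM in controls and 13.6 to 22.6 CPM in *Mttp-IKO* pools, with 0 called and Csf3r the largest in every pool. Of the 12, 6 had 0 to 13 reads in a pool and failed the filter, among them Ly6g, Mpo and Elane, and Ly6g was at 0 in 4 pools. Control pool 2, the lowest control for Saa1, Saa2, Saa3, Orm1, Orm2, Lcn2, Hp and Hpx, also had the lowest recruited macrophage markers among controls (351 CPM) and the highest adipocyte markers of all pools (20.7 CPM, against 0.240 to 1.47 CPM elsewhere). Exocrine pancreas markers summed to 2.94 to 6.62 CPM, most of it from Cela1. Small intestine markers summed to 803 to 2911 CPM, nearly all of it Apoa4, which liver makes too, with Lct, Sis and Alpi under the filter. The part of these markers in the differences of the acute phase genes was not tested.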

How the data were processed

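Libraries were prepared after ribosomal RNA depletion. The authors aligned reads with STAR 2.5.1a to the Ensembl release 76 assembly (GRCm38), and the deposited counts are uniquely aligned, unambiguous reads per gene from featureCounts 1.4.6-p5, whose strand setting is not given in the sources used here. The authors also deposited CPM and RPKM, which follow from the counts and were not tested. The table of all pools holds 40481 of 41388 genes with symbols and the same counts; 276 repeated lines were dropped. Genes were filtered with filterByExpr (minimum count 10, minimum total 15), scaled by TMM and compared with edgeR 4.0.16 (glmQLFit, glmQLFTest; R 4.3.3) over 17287 genes; standard errors were taken from the F statistic. Alternatives used DESeq2 1.42.0, limma 3.58.1 (voom), other scalings, filters and thresholds, a loess of span 0.3 on gene length, the replicate number and each pool left out. On simulated counts of 17018 genes for this comparison, edgeR recovered 200 of 200 genes planted at a log2 fold of 2, with 7 unchanged genes called. DESeq2 recovered 198 with 23 unchanged genes called, and limma-voom 199 with 9. Every simulated gene had the same median dispersion and no pool was set apart. The recovery therefore does not give the power for genes that vary between pools as the members do. Transcripts came from GENCODE M21 and promoters from RefSeq, with alignments by Biopython 1.88.

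The members and lists were chosen with earlier results of these data known. Named genes are the members, the paralog Orm3, up to 4 genes of each list with the smallest p, its most abundant gene, and for Saa1, Lcn2 and Hp the 3 protein-coding genes (average log2 CPM of at least 3) most correlated with them, of which 1 is not reported here. Tnf, Lif and Il1b, the other inducing cytokine genes tested, were named after their values had been seen. Of the paralog list (Orm3, Saa5, Ptx3) 1 gene was tested and 0 called. Counts of every pair of pools differed by more than sampling noise.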

Additional observations from a re-analysis of the deposited data

How the results depend on the processing

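The count of acute phase members called, 0 of 10, became 3 with DESeq2, beside 11.5% of all genes. It was 1 with the length trend removed, beside 874 of 17287 genes (887 with the replicate block added). At an adjusted p under 0.1 it was 2, and the share of all genes at 0.1 is not given here for any list. With each pool left out it was 0 to 2, beside 0 to 892 genes. Other positive acute phase genes called were 5, and became 10 with DESeq2, 3 with total counts, 3 with the replicate block, 7 with the length trend removed (with or without the block) or at 0.1, and 0 to 7 with a pool left out. Genes expected to fall were 0, and became 2 with DESeq2, 1 with the replicate block and the length trend removed, and 0 to 2 with a pool left out. Inducers and transducers called were 2, and became 6 with DESeq2 or at 0.1, 4 with the length trend removed (with or without the block), 1 with the replicate block and 0 to 3 with a pool left out. Receptor and clearance genes called were 1, and became 4 with DESeq2 or at 0.1, 2 with total counts, protein-coding genes only or the length trend removed (with or without the block), 3 without the filter, 0 with the replicate block and 0 to 2 with a pool left out. The log2 fold change of Hp turned positive with the length trend removed (0.12, and 0.082 with the replicate block), without control pool 1 (0.028) and without *Mttp-IKO* pool 3 (0.25). Saa4 was -0.48 without *Mttp-IKO* pool 3 and Lcn2 -0.086 without control pool 2. With each pool left out, Saa4 ran from -0.48 to 0.88, Lcn2 from -0.086 to 1.001 and Hp from -0.23 to 0.25. Over all 16 alternatives the log2 fold change of Saa1 ran from -1.43 to -0.83, Saa2 from -1.84 to -0.82, Orm2 from -1.76 to -1.13 and Apcs from 0.74 to 1.48, and the cause of these shifts was not tested. Same-numbered pools of the genotypes had deviations correlated at 0.14, 0.11 and 0.0070, so the numbers were not taken as pairs, and the replicate block changed no member's call. Leaving out a pool leaves 5 samples and fewer degrees of freedom. Over all genes 694 of 17287 were called, against 1995 with DESeq2, 428 with limma-voom and 0 to 892 with a pool left out. The count was 1019 with total counts, 592 with the replicate block, 874 with the length trend removed and 887 with both the block and that removal. It was 733 of 14167 with protein-coding genes only and 990 of 27802 without the filter.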

Other observations

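The genes whose log2 CPM followed a member most closely over the 6 pools were found among 9027 protein-coding genes, as a description with points that share genotype and library. For Saa1 these were Rasa3 (Pearson r 0.990, Spearman rho 0.943), Epb41l1 (0.987 and 0.829) and Sfxn3 (0.981 and 0.886), and 161 genes had an r over 0.9. For Lcn2 they included Vnn3 (0.979 and 0.886) and Plod1 (0.976 and 0.943), with 19 genes over 0.9. For Hp they were Sin3b (0.995 and 0.943), Dad1 (0.994 and 1) and Dgcr6 (0.993 and 0.943), with 495 genes over 0.9, and all 3, like Hp, had their lowest value in *Mttp-IKO* pool 3.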
